A study of Mus musculus with 8 samples.

Results

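The keratin-associated protein genes were examined in RNA-seq of mouse epidermis, leaving aside the *Krtap13* genes. Members were the protein-coding genes of the deposited count table whose GENCODE symbol begins with *Krtap*, without those beginning with *Krtap13*, and there were 104 of them among 55416 genes in the table. They fell into 26 subfamilies in 5 places of the GRCm39 genome. Chromosome 1 held 2 members, chromosome 7 held 12, chromosome 10 held 23, chromosome 11 held 38 and chromosome 16 held 29.

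The 8 libraries came from dorsal epidermis of postnatal day 4 mice, peeled from the dermis after a heat treatment. The labels give 4 libraries as WT, called control here (A1, B1, C1 and C6), and 4 as epidermis *Rora* knockout, called RoraEKO here (A3, B4, C2 and C3), and the study describes RoraEKO mice as a *Rora* flox/flox strain crossed with K14-Cre and controls as littermates. The K14 promoter drives Cre in basal keratinocytes, including those of the hair follicle. Their descendants, which include suprabasal and hair shaft cells, inherit the deletion, and cells of other lineages in the peel keep the floxed gene. The labels do not say what the letter at the start of a library's name marks.

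Keratin-associated proteins fill the space between keratin filaments of the hair shaft and cross-link them, mostly through cysteine. They are made late in hair formation, by the cells that will become cortex and cuticle of the shaft, from small genes without introns that lie in tandem clusters. High sulfur and ultra-high sulfur proteins are rich in cysteine, and high glycine-tyrosine proteins are short and rich in those residues. RORα is a nuclear receptor that binds a short element as a monomer and activates transcription.

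The coding sequences show how these residues recur. The first 180 coding bases are printed for the called gene, *Krtap5-2* (GRCm39 chr7:141729499-141729678, minus strand), for the chromosome 11 gene with the highest level, *Krtap1-5* (chr11:99471612-99471791, minus strand), and for the gene with the highest level of all, *Krtap7-1* (chr16:89304971-89305150, minus strand). Capitals mark cysteine codons in *Krtap5-2* and *Krtap1-5*, and glycine and tyrosine codons in *Krtap7-1*.
Krtap5-2: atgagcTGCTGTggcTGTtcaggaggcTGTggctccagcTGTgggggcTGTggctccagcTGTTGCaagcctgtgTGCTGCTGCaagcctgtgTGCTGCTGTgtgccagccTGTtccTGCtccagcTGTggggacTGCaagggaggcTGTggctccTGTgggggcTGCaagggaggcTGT
Krtap1-5: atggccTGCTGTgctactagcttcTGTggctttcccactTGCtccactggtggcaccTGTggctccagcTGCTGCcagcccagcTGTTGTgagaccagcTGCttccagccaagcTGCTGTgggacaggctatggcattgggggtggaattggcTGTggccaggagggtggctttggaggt
Krtap7-1: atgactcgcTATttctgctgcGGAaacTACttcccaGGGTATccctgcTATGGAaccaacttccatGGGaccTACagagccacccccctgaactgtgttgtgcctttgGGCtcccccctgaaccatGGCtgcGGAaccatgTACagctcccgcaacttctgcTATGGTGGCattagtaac
Of these 60 codons, 22 coded for cysteine in *Krtap5-2* and 13 in *Krtap1-5*, whereas 16 coded for glycine or tyrosine in *Krtap7-1*. Over the whole coding sequence, cysteine made up 34.6% of the 367 residues of *Krtap5-2* and 26.2% of the 122 residues of *Krtap1-5*. Glycine and tyrosine together made up 29.9% of the 87 residues of *Krtap7-1*.

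The members together took a large share of the RNA. Their summed level was 64863, 33293, 40595 and 23542 CPM (counts per 1000000, TMM scaled) in controls A1, B1, C1 and C6. It was 58843, 37432, 58220 and 31132 CPM in RoraEKO replicates A3, B4, C2 and C3. The genotypes overlapped, and replicate A1 was highest and C6 lowest. The members held between 2.35% and 6.43% of all counts of a library. The log2 ratio of the RoraEKO to the control mean was 0.19, and it ran from 0.00487 to 0.52 with each library left out in turn. In bulk samples, fewer cells of a type and less RNA per cell cannot be told apart.

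Levels differed widely between members. The mean over the 8 libraries was above 1000 CPM for 10 members, between 100 and 1000 CPM for 39, between 10 and 100 CPM for 34, and at or under 10 CPM for 21. The 10 members with the highest mean took 52.1% of the summed mean level, and 5 of them lie on chromosome 16 and 5 on chromosome 11. Per kilobase of exon, *Krtap7-1* (7068 CPM per kb), the high glycine-tyrosine gene *Krtap19-5* (6134) and *Krtap8-1* (5595) were highest, followed by the high sulfur genes *Krtap1-5* (3343) and *Krtap3-1* (2997). On the same scale, *Krtap10-10* had the highest level of the chromosome 10 members, at 386 CPM per kb, and *Krtap5-25* that of the chromosome 7 members, at 270. A total of 99 members passed the filter on low counts and were tested. The other 5, *Krtap4-26*, *Krtap4-27*, *Krtap9-5*, *Krtap20-21* and *Krtap20-22*, had a mean of at most 0.556 CPM, and *Krtap4-27* had 0 counts in every library.

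Several facts about the libraries bear on the values. Totals ran from 17286903 to 26705533 counts, so that 3 counts corresponded to between 0.113 and 0.196 CPM. *Rora*, the targeted gene (ENSMUSG00000032238, GRCm39 chromosome 9, 68561068 to 69295528), was at 212 ± 66.6 CPM in control and 196 ± 34.6 CPM in RoraEKO libraries (SD, n = 4). Its gene-level counts did not separate the genotypes, so genotypes were taken from the labels alone. *Xist* was at or above 416 CPM in controls C1 and C6 and at most 0.0546 CPM in the other 6 libraries, and the Y-linked gene *Ddx3y* was at 0 CPM in C1 and C6 alone. Within letter C the genotype difference is therefore also one between libraries with and without *Xist*, and the effects of genotype and sex cannot be told apart there. The summed level of 6 interfollicular keratinocyte markers (*Krt5*, *Krt14*, *Krt1*, *Krt10*, loricrin and *Flg*) was between 44726 and 70373 CPM in control and between 85449 and 107469 CPM in RoraEKO libraries, and none of the 6 passed the cutoffs. *Krt1* (29965 and 48566 CPM) and *Krt10* (23895 and 37714 CPM, control and RoraEKO means) made up most of the sum, and *Krt14*, *Krt5*, loricrin and *Flg* had log2 fold changes of 1.12, -0.22, -0.20 and 0.01. The mean of *Krt14* was 132 CPM in control and 287 CPM in RoraEKO libraries, with 706 CPM in replicate B4. Markers of dermal fibroblasts summed to at most 10.1 CPM, of dermal papilla to at most 0.385, of skeletal muscle to at most 3.38 and of endothelial cells to at most 2.75 CPM in any library.

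The first question was which of these genes differed between RoraEKO and control epidermis. In the edgeR quasi-likelihood test over 13147 genes, 1 of the 99 tested members, *Krtap5-2*, was lower in the RoraEKO libraries and 0 were higher, with 0.05 as the cutoff for the adjusted p and 1.5 for the fold change. Over all genes tested, 3.22% were lower and 2.3% were higher by the same cutoffs, 5.51% together. At an unadjusted p of 0.05, 12 members were lower and 0 were higher, against 10.3% and 7.92% of all genes tested. DESeq2 called 8 members lower, against 4.21% of all genes tested, and 0 higher.

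*Krtap5-2* (ENSMUSG00000054759), which codes for a protein rich in both cysteine and glycine, spans 141728272 to 141729742 on the minus strand of chromosome 7. Its level was 347, 122, 75.9 and 97.9 CPM in controls A1, B1, C1 and C6, and 25.4, 6.33, 18.4 and 12.8 CPM in RoraEKO replicates A3, B4, C2 and C3. The lowest control library was above the highest RoraEKO library, and the replicate named A had the highest level in each genotype. The group means were 161 ± 126 and 15.7 ± 8.11 CPM (SD, n = 4), with a log2 fold change of -3.36 (standard error 0.64, edgeR quasi-likelihood adjusted p = 0.00802). These values rest on 1603 to 9122 counts in control and 154 to 389 counts in RoraEKO libraries. Within the libraries that share a letter, the log2 difference was -3.77 in A, -4.24 in B and -2.49 in C. *Krtap5-2* was lower by the same cutoffs in all 18 alternative fits, with adjusted p from 2.58e-09 to 0.0373.

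*Krtap5-3* (ENSMUSG00000046248, 141755101 to 141756752, plus strand), a neighbour of *Krtap5-2* on chromosome 7, was looked at after its values were seen. Its level was 247, 74.9, 36.5 and 47.4 CPM in controls A1, B1, C1 and C6, and 26.6, 2.92, 17.6 and 9.94 CPM in RoraEKO replicates A3, B4, C2 and C3. The genotypes did not overlap, but the gene missed the threshold, with a log2 fold change of -2.84 (standard error 0.92, edgeR quasi-likelihood adjusted p = 0.0603). In 6 of the 18 alternative fits it was past the cutoffs. *Krtap5-2* and *Krtap5-3* together made up 24.0%, 15.4%, 20.0% and 27.6% of all *Krtap5* counts in controls A1, B1, C1 and C6. They made up 4.24%, 2.42%, 6.53% and 5.10% in RoraEKO replicates A3, B4, C2 and C3, below every control library.

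The other 10 *Krtap5* genes, which lie in the same stretch of 185 kb, had log2 fold changes between -1.16 and -0.15, and none passed the cutoffs (adjusted p from 0.468 to 0.937). Their summed level was 1883, 1076, 450 and 382 CPM in controls A1, B1, C1 and C6 and 1173, 373, 515 and 422 CPM in RoraEKO replicates A3, B4, C2 and C3, so that the genotypes overlapped. In letters A and B all 10 were lower in the RoraEKO library. In letter C all 10 had a higher mean log2 level in the RoraEKO libraries, with differences between 0.06 and 0.90. Genotype and sex cannot be told apart there. Over all 12 *Krtap5* genes the median log2 fold change was -0.85, and without replicate A1, the highest library for each of the 12, it was -0.07 with 9 below 0. Without RoraEKO replicate A3 it was -1.37 with all 12 below 0. The most abundant, *Krtap5-25*, was at 421 ± 309 CPM in control and 263 ± 159 CPM in RoraEKO libraries (SD, n = 4; log2 fold change -0.68, edgeR quasi-likelihood adjusted p = 0.587).

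**Figure D1:**
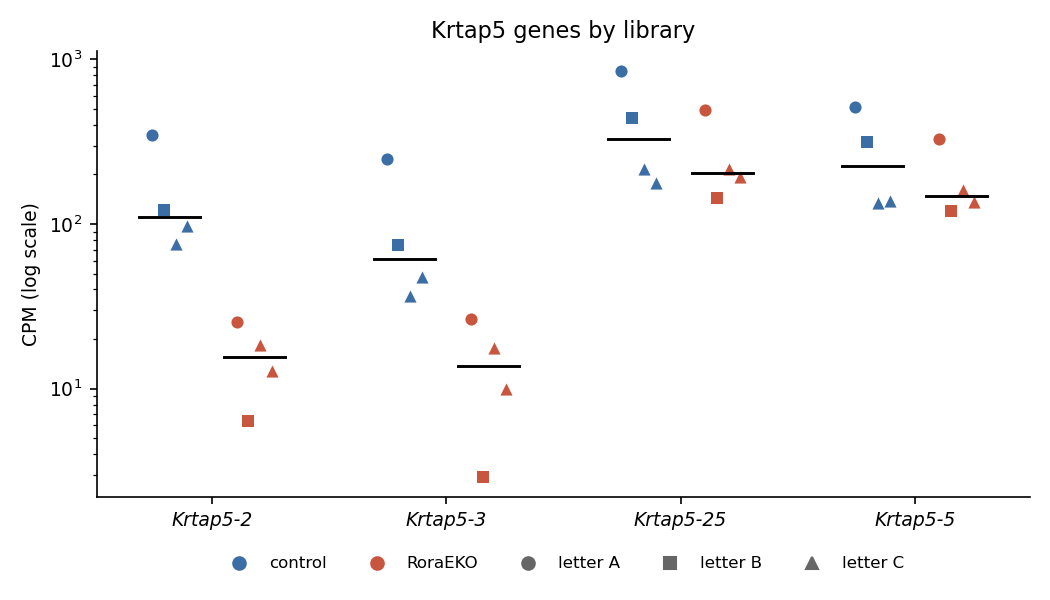
Level of 4 *Krtap5* genes in each library, in CPM on a log scale. Blue symbols are control and red symbols RoraEKO libraries, the shape gives the letter, and black lines are medians of 4 libraries. For *Krtap5-2* and *Krtap5-3* all red symbols lie below all blue ones, and for *Krtap5-25* and *Krtap5-5* the colours overlap.

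*Krtap5-2* and *Krtap5-3* also stood apart in sequence. Glycine and tyrosine made up 36.0% and 39.3% of their proteins, against 12.1% to 21.3% in the other 10, and cysteine made up 34.6% and 35.1%, against 38.9% to 44.3%. Their proteins have 367 and 356 residues, and those of the others 199 to 263. Their transcripts were 72.5% identical in a least-edit alignment, and the next closest to *Krtap5-2* was *Krtap5-25*, at 64.0%. No window of 100 bases of either transcript occurred in another *Krtap* transcript.

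The 250 bases before the start site are shown for both genes and for *Krtap5-25*, the most abundant gene of the cluster, whose genotypes overlapped. Short motifs were searched on both strands, the TATA box (TATAAA), a LEF1 core (CTTTGA), a ROR element (TAGGTCA or TGGGTCA) and a HOXC13 core (TTTATNA or TTTATNG, and also TTAATNA or TTAATNG), and capitals mark their matches. The windows are GRCm39 chr7:141729743-141729992 (minus strand), chr7:141754851-141755100 (plus strand) and chr7:141698345-141698594 (minus strand).
Krtap5-2: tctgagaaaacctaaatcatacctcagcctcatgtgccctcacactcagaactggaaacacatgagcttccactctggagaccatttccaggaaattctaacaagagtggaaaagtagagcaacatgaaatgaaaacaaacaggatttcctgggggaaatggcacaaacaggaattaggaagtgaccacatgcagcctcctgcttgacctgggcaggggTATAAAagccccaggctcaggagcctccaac
Krtap5-3: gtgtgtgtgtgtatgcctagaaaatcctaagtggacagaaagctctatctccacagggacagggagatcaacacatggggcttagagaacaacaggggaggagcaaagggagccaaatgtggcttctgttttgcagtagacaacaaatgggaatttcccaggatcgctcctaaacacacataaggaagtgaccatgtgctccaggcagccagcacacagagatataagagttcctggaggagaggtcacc
Krtap5-25: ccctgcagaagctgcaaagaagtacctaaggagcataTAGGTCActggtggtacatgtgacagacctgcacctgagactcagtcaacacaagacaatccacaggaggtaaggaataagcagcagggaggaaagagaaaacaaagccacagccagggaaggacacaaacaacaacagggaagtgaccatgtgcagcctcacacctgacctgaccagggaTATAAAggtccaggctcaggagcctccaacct
*Krtap5-2* held a TATA box, *Krtap5-3* held none of the 4 motifs, and *Krtap5-25* held a TATA box and a ROR element. The ROR element was present in 6 of the 12 *Krtap5* windows (*Krtap5-21* to *Krtap5-26*), in 9 of the 104 windows of all members and in 5.26% of 21757 windows of protein-coding genes. None of these *Krtap5* genes with a ROR element passed the cutoffs. A match of letters describes the window and is not a measured binding site. Where a TATA box follows C or T, it also matches the HOXC13 core.

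The second block of genes is that of chromosome 10, where 18 *Krtap10* and 5 *Krtap12* genes lie within 173 kb. In human hair these subfamilies are known from the cuticle, the outer cell layer of the shaft. All 23 had a log2 fold change below 0, between -2.85 and -0.67 with a median of -1.24, and 0 passed the cutoffs. Over all tested genes, 56.1% were below 0 and the median was -0.04. At an unadjusted p of 0.05, 10 of the 23 were lower, against 10.3% of all tested genes. All 23 were also lower in the RoraEKO library within letter A and within B. Within C all 23 had a lower mean log2 level in the RoraEKO libraries. The medians were -1.79, -1.11 and -0.46, and a decrease in every letter held for 25.1% of all tested genes. In letter C the summed level of the 23 was 1332 CPM in control C1 and 819 CPM in control C6. It was 837 and 856 CPM in RoraEKO replicates C2 and C3, both above C6. Replicate A1 was the highest library for each of the 23, and without it the median was -0.45 and 22 were below 0.

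In 3 chromosome 10 genes, *Krtap10-35*, *Krtap10-25* and *Krtap12-21*, every RoraEKO library was below every control library. Among all tested genes, 12.9% had genotypes that did not overlap in either direction, which is about the share of these 3 among the 23. *Krtap10-35* (ENSMUSG00000112653, 77682637 to 77683137, plus strand), a high sulfur gene, was at 64.7, 40.3, 13.5 and 10.8 CPM in controls A1, B1, C1 and C6. In RoraEKO replicates A3, B4, C2 and C3 it was at 10.2, 1.23, 3.71 and 3.10 CPM. The highest RoraEKO library was just below the lowest control library, and the adjusted p was 0.0508 (log2 fold change -2.85, standard error 0.87, edgeR quasi-likelihood test). In 9 of the 18 alternative fits it was past the cutoffs, among them those without replicate A3 (adjusted p = 0.027) and without replicate C6 (adjusted p = 0.0402).

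*Krtap12-22*, also high sulfur, was at 65.8, 29.0, 18.8 and 14.2 CPM in controls A1, B1, C1 and C6 and at 14.7, 8.42, 6.99 and 5.94 CPM in RoraEKO replicates A3, B4, C2 and C3. Its genotypes overlapped by replicates C6 and A3 (log2 fold change -1.83, standard error 0.56, adjusted p = 0.0583). In 7 of the 18 alternative fits it was past the cutoffs. *Krtap10-25*, *Krtap12-21* and *Krtap10-36*, looked at after their values were seen, had log2 fold changes of -2.05, -2.19 and -1.91 (adjusted p = 0.0611, 0.0711 and 0.0696), and each was called in 7 of 18. The most abundant gene of the cluster, *Krtap10-10*, was at 622 ± 417 CPM in control and 385 ± 207 CPM in RoraEKO libraries (SD, n = 4; log2 fold change -0.69, adjusted p = 0.534).

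Chromosome 10 members took 7.45%, 7.30%, 3.28% and 3.48% of the summed *Krtap* level in controls A1, B1, C1 and C6. They took 3.80%, 2.93%, 1.44% and 2.75% in RoraEKO replicates A3, B4, C2 and C3. In every letter the RoraEKO libraries had the lower share, and across letters replicate A3 was above the control replicates of letter C. For chromosome 7 the shares were 3.82%, 3.82%, 1.39% and 2.24% in control and 2.08%, 1.02%, 0.946% and 1.43% in RoraEKO libraries in the same order, and they overlapped too.

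**Figure D2:**
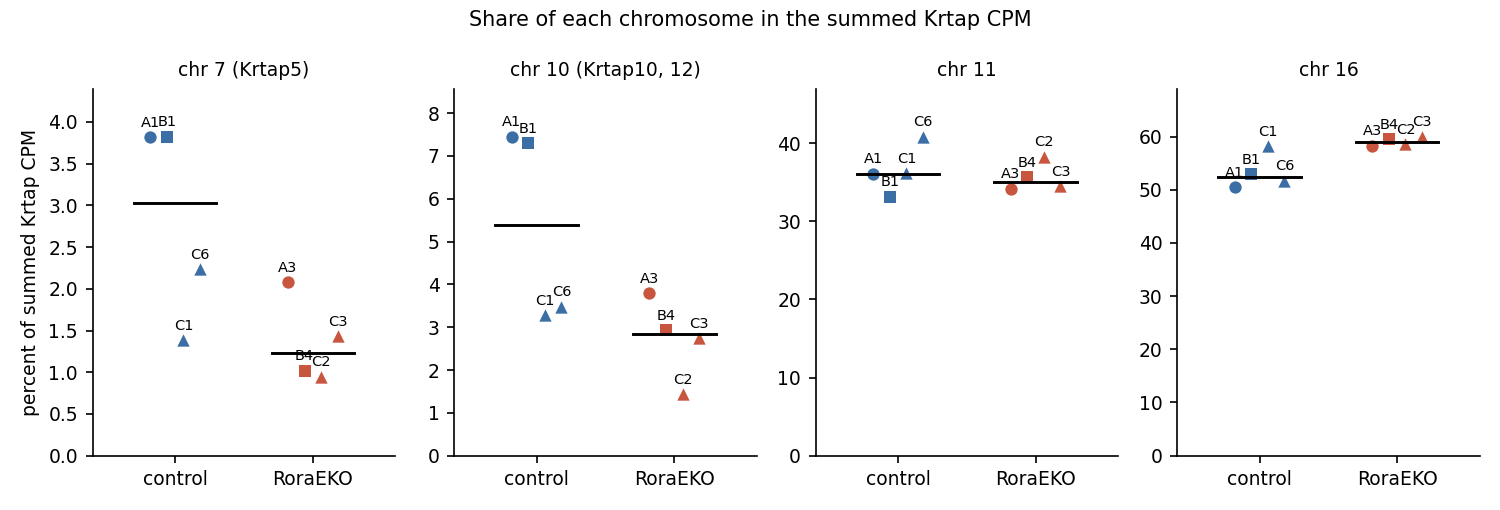
Percent of the summed *Krtap* CPM that came from chromosomes 7, 10, 11 and 16, with 1 symbol per library, its shape giving the letter, and black lines at the median of 4. The chromosome 10 share was 3.28% to 7.45% in control and 1.44% to 3.80% in RoraEKO libraries, and the chromosome 16 share was 50.5% to 58.2% and 58.3% to 60.0%.

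All 23 chromosome 10 members lie inside the span of *Tspear* (ENSMUSG00000069581, 77522403 to 77722855, plus strand), 10 of them on its strand and 13 on the other. Whether the counting used strand is not given in the sources used here. *Tspear* itself was at 0.771 to 3.31 CPM, below the mean level of every one of these members, and missed the cutoffs (log2 fold change -0.95, adjusted p = 0.232). Many *Krtap10* transcripts are near copies: 66.7% of the 100-base windows of *Krtap10-25* also occurred in another *Krtap* transcript, and 46.6% of those of *Krtap10-36*, so that the split of reads between such genes is uncertain. No window of *Krtap10-35*, *Krtap12-21* or *Krtap12-22* was shared.

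The window before the start site of *Krtap10-35* (GRCm39 chr10:77682387-77682636, plus strand) is shown as the member of this cluster closest to the threshold, and the capitals mark a HOXC13 core.
Krtap10-35: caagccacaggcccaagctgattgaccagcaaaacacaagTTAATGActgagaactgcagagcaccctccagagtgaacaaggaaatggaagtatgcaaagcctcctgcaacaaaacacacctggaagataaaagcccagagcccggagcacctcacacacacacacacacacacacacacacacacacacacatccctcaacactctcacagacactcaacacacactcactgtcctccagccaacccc
HOXC13, a homeobox factor of the hair matrix, and LEF1, an effector of Wnt signalling, are known regulators of hair genes. A HOXC13 core was in 43.5% of the chromosome 10 windows and a LEF1 core in 0%. The TATA box was in 47.8% of them, against 76.9% of the windows of all members and 11.9% of those of all protein-coding genes.

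The genes of chromosome 16 and chromosome 11 held most of the *Krtap* RNA. On chromosome 16, where the high glycine-tyrosine subfamilies *Krtap6*, *Krtap8*, *Krtap19*, *Krtap20*, *Krtap21* and *Krtap22* lie, 25 of 27 tested members had a log2 fold change above 0, with a median of 0.39, and 0 passed the cutoffs (adjusted p from 0.390 to 0.977). The median was 0.68 without control replicate A1 and 0.23 without control replicate C6, the extremes over the 8 fits that leave out 1 library, and 24 to 27 of the 27 were above 0. Within A, B and C the medians were 0.13, 0.31 and 0.59, and 13 of the 27 were above 0 in all 3 letters, against 17.7% of all tested genes. The share of these genes in the summed *Krtap* level was 50.5%, 53.0%, 58.2% and 51.7% in controls A1, B1, C1 and C6. It was 58.3%, 59.5%, 58.5% and 60.0% in RoraEKO replicates A3, B4, C2 and C3, and the lowest of these was just above replicate C1.

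*Krtap7-1* (ENSMUSG00000056706), the most abundant member, was at 6418, 3097, 4340 and 2170 CPM in controls A1, B1, C1 and C6 and at 5945, 4122, 5385 and 3636 CPM in RoraEKO replicates A3, B4, C2 and C3. The genotypes overlapped across most of their range (log2 fold change 0.25, standard error 0.37, adjusted p = 0.793). All 10 of the most abundant members (*Krtap7-1*, *Krtap1-5*, *Krtap8-1*, *Krtap19-5*, *Krtap3-1*, *Krtap15-1*, *Krtap3-3*, *Krtap4-1*, *Krtap6-3* and *Krtap3-2*) had a log2 fold change between 0.21 and 0.37, with adjusted p from 0.578 to 0.825. The 3 members above 0 with the smallest p were *Krtap20-20* (0.57, adjusted p = 0.390), *Krtap19-1* (0.50, adjusted p = 0.402) and *Krtap27-1* (0.55, adjusted p = 0.419).

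In the windows of 250 bases before the start sites, a LEF1 core was in 34.5% of those of chromosome 16 and in 18.4% of those of chromosome 11, against 14.1% of all protein-coding genes. A HOXC13 core was in 62.1% and 86.8%, against 29.2% of all and 8.33% of the chromosome 7 windows. A TATA box that follows C or T also matches this core, so the shares of these motifs are not independent. The TATA box was in 72.4% of the chromosome 16, 94.7% of the chromosome 11 and 91.7% of the chromosome 7 windows. How many HOXC13 matches are TATA boxes was not counted.

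Chromosome 16 also carries the *Krtap13* genes, of which *Krtap13* itself was at 0 CPM in all control libraries and at 21.3, 84.8, 65.0 and 44.0 CPM in RoraEKO replicates A3, B4, C2 and C3. The tested members on either side of that block were *Krtap27-1*, 79.7 kb before the start of *Krtap13*, and *Krtap15-1*, 69.5 kb after it. *Krtap27-1* was at 7.76, 3.50, 5.21 and 3.19 CPM in controls A1, B1, C1 and C6 and at 7.96, 9.94, 5.78 and 5.24 CPM in RoraEKO replicates A3, B4, C2 and C3. *Krtap15-1* was at 1404 ± 457 CPM in control and 1765 ± 277 CPM in RoraEKO libraries (SD, n = 4; log2 fold change 0.33, adjusted p = 0.578). Neither neighbour was separated by genotype, and none of the other chromosome 16 members was. The annotated span of *Krtap15-1* contains *Krtap14*, which lies on the other strand, and how reads in that stretch were assigned is not given in the sources used here.

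**Figure D3:**
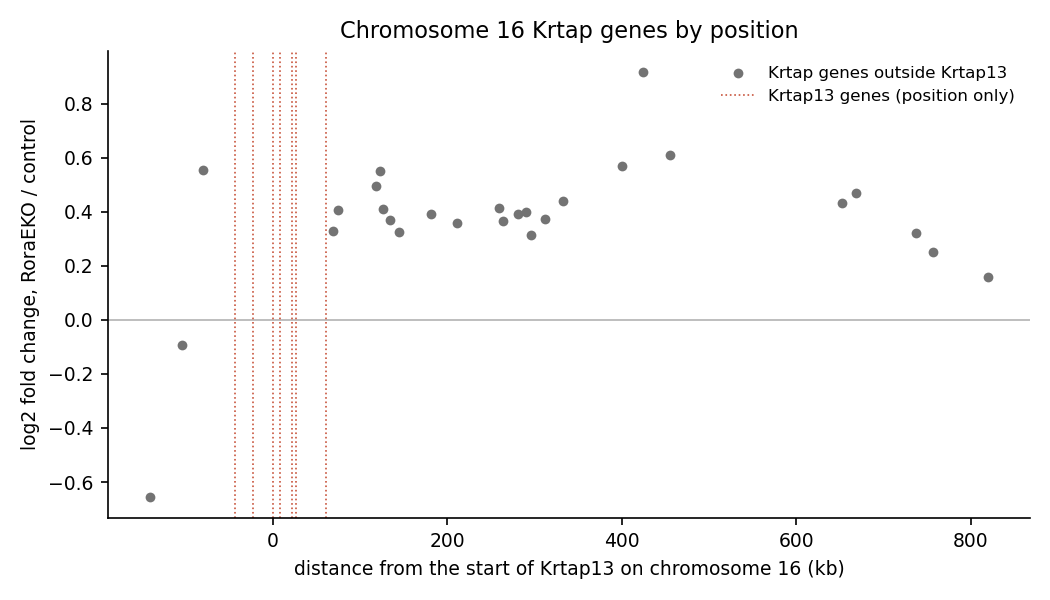
Log2 fold change of RoraEKO over control for the 27 tested members on chromosome 16, by distance in kb from the start of *Krtap13*. Each grey point is a gene and dotted red lines mark the positions of the 7 *Krtap13* genes, whose values are not drawn. Of the 25 points above 0, all but 1 (*Krtap27-1*) lie to the right of the block, where no point is below 0, and no point passed the cutoffs.

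On chromosome 11, 17 of 35 tested members were above 0 and 18 below, with a median of -0.04, which is also the median of all tested genes. This split was not stable: without control replicate A1 the median was 0.50 with 4 of the 35 below 0, without RoraEKO replicate C3 it was 0.22 with 12 below, and without control replicate B1 it was -0.22 with 23 below. It was -0.14 without RoraEKO replicate A3 and -0.10 without control replicate C1. The subfamilies *Krtap1*, *Krtap2* and *Krtap3*, known from the hair cortex, had all 10 tested members above 0, between 0.05 and 0.76. *Krtap1-5* was at 3090 ± 847 CPM in control and 3870 ± 1400 CPM in RoraEKO libraries (SD, n = 4; adjusted p = 0.674), and *Krtap2-20* at 516 ± 199 and 665 ± 320 CPM (adjusted p = 0.693). The ultra-high sulfur subfamily *Krtap4* had 6 tested members above and 8 below 0, and *Krtap9* had 1 above and 4 below. *Krtap4-1* (0.25, adjusted p = 0.749) and *Krtap9-3* (0.30, adjusted p = 0.666), the most abundant of each, were above 0. At the far end of the cluster, *Krtap16-1*, *Krtap17-1* and *Krtap29-1* had log2 fold changes of -1.07, -0.57 and -0.59 (adjusted p from 0.418 to 0.775). Both *Krtap28* genes of chromosome 1 were below 0, with a median of -0.50 that was -0.07 without control replicate A1 and -0.84 without RoraEKO replicate A3, and *Krtap28-10* was at 432 ± 277 CPM in control and 315 ± 147 CPM in RoraEKO libraries (SD, n = 4; adjusted p = 0.699).

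**Figure D4:**
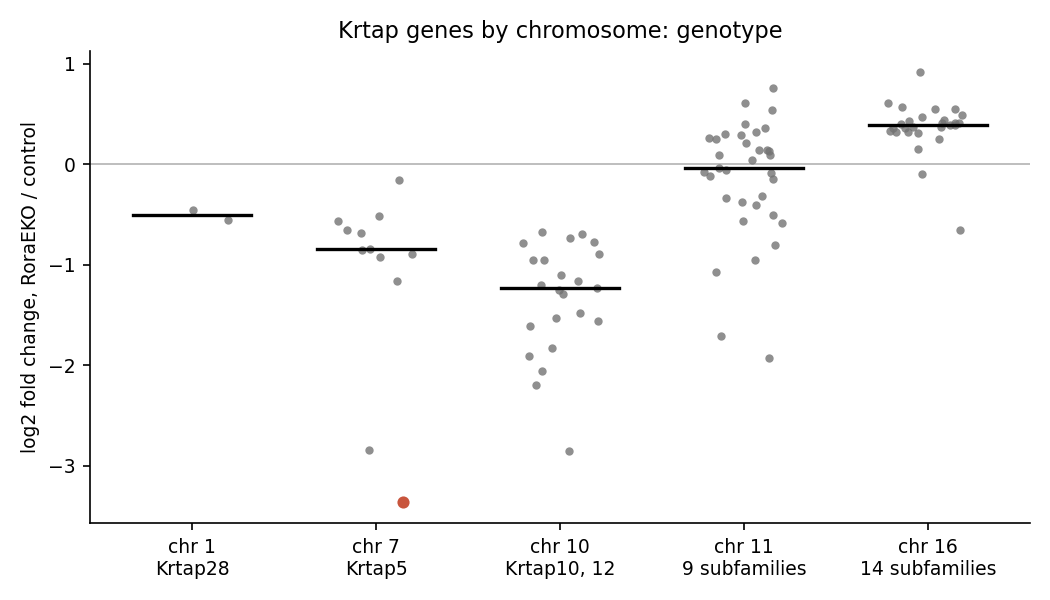
Log2 fold change of RoraEKO over control for the 99 tested members, by chromosome. Each point is a gene, black lines are medians and the red point is *Krtap5-2*, the member past the cutoffs. The medians are -0.50 on chromosome 1, -0.85 on chromosome 7, -1.24 on chromosome 10, -0.04 on chromosome 11 and 0.39 on chromosome 16.

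The members were also sorted by protein instead of position. By cutoffs of 35% glycine and tyrosine and then 30% cysteine, 26 members were high glycine-tyrosine, 47 ultra-high sulfur and 31, the remainder, high sulfur. That remainder is not uniformly rich in cysteine: *Krtap7-1*, *Krtap11-1*, *Krtap14*, *Krtap15-1*, *Krtap24-1*, *Krtap26-1*, *Krtap27-1* and *Krtap29-1*, at 4.0% to 14.6% cysteine, are among the 31. These cutoffs placed *Krtap28-10*, *Krtap28-13*, *Krtap5-2* and *Krtap5-3*, whose cysteine content is 34.6% to 42.9%, in the first class. Those 4 genes had log2 fold changes below 0, whereas the other 20 tested genes of the first class, with at most 16.7% cysteine, were all above 0. The 4 lie on chromosomes 1 and 7 and the 20 all lie on chromosome 16, so protein class and position cannot be told apart here. Of the ultra-high sulfur members 8 were above and 36 below 0 (median -0.56), and of the high sulfur members 14 were above and 17 below (median -0.59). Apart from *Krtap5-2*, none of these members passed the cutoffs. With *Xist* log2 CPM as a covariate, 13 members were lower by the cutoffs and 0 were higher, against 2.18% and 1.32% of all genes in that fit, and the medians were -1.66 on chromosome 7, -1.95 on chromosome 10 and 0.17 on chromosome 16. *Xist* was high in controls C1 and C6 alone. The fit therefore rests mostly on controls A1 and B1 against all RoraEKO libraries, letter C included. Genotype and letter are partly mixed in it, and its values are not a genotype effect corrected for sex.

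Other hair genes were examined from lists of hair shaft keratins, inner root sheath genes and hair follicle regulators. Of 16 hair shaft keratins 11 were above and 5 below 0, of 10 inner root sheath and companion layer genes 5 were above and 5 below, and none passed the cutoffs. Of 12 regulators, *Gata3*, a transcription factor of the inner root sheath, was lower (log2 fold change -0.77, adjusted p = 0.0493) and no other regulator passed. None of 6 shaft accessory genes, 4 tested matrix and outer root sheath genes, 5 sebocyte, 5 melanocyte, 3 erythroid, 3 Langerhans cell and 3 T cell markers passed either. The melanocyte markers summed to between 25.2 and 56.2 CPM in control and between 17.3 and 33.2 CPM in RoraEKO libraries. The erythroid markers summed to between 31.8 and 215 CPM in control and between 83.5 and 666 CPM in RoraEKO libraries, with log2 fold changes of 1.77 for *Hba-a1*, 1.94 for *Hbb-bs* and 1.67 for *Alas2* (edgeR quasi-likelihood adjusted p from 0.165 to 0.279). *Gata3* did not pass with RLE size factors, with either other filter on low counts, or in 7 of the 8 fits without a library. The summed level of the hair shaft keratins was 14114, 5353, 5233 and 3539 CPM in controls A1, B1, C1 and C6 and 12095, 8895, 6894 and 6734 CPM in RoraEKO replicates A3, B4, C2 and C3. The genotypes overlapped, with letter A highest in each. Without control replicate A1, 5 genes of the 38 in these hair lists were higher by the cutoffs, against 2.9% of all genes in that fit.

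The second question was how the members differed by the letter of the library name. In a test of the letter with genotype in the fit, 3 members passed an adjusted p of 0.05, against 0.0532% of all tested genes. They were *Krtap12-1* (adjusted p = 0.0363), *Krtap10-30* (adjusted p = 0.0359) and *Krtap17-1* (adjusted p = 0.0363). This number was unstable: it was 0 without replicate A1, C1, C2 or C6, against at most 0.0074% of all genes in those fits. It was 18 without A3 (2.2% of all genes in that fit), 21 without B4 (0.679%) and 34 without B1 (3.33%).

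*Krtap17-1*, an ultra-high sulfur gene, was at 624 and 349 CPM in letter A (replicates A1 and A3), at 270 and 182 CPM in letter B (B1 and B4) and at 117, 98.2, 121 and 99.6 CPM in letter C (C1, C2, C3 and C6, of which C2 and C3 are RoraEKO). *Krtap10-30* was at 238 and 87.8 CPM in A, 114 and 44.8 CPM in B and 25.2, 16.1, 20.0 and 22.5 CPM in C, in the same order. *Krtap12-1* was at 113 and 39.7 CPM in A, 52.9 and 25.6 CPM in B and 24.9, 11.5, 14.8 and 19.6 CPM in C. In each of these genes both letter A libraries were above all letter C libraries, and in A and in B the RoraEKO library was below the control library with the same letter.

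Both letter A libraries were above all letter C libraries in 10 of 12 tested members on chromosome 7, 18 of 23 on chromosome 10, 16 of 35 on chromosome 11, 7 of 27 on chromosome 16 and both on chromosome 1, against 18.0% of all tested genes. In the contrast of C against A, 10 of 12, 23 of 23, 5 of 35, 2 of 27 and 2 of 2 of them had an adjusted p under 0.05, against 9.56% of all tested genes. The median log2 difference, C minus A, was -2.40 on chromosome 7, -1.93 on chromosome 10, -1.38 on chromosome 1, -0.85 on chromosome 11 and -0.60 on chromosome 16, where the median of all tested genes was 0.03. *Krtap5-2* and *Krtap5-3* had smaller letter differences than most of chromosome 7 (-1.36 and -1.72). In neither were both letter A libraries above all letter C libraries, because RoraEKO replicate A3 was below controls C1 and C6. Within each genotype, the letter A library was above both letter C libraries in these genes. Hair shaft keratins showed a median of -1.56 and inner root sheath genes -2.04, and 13 of 16 and 8 of 10 had both letter A libraries above all letter C libraries. The summed level of the inner root sheath list was 51312 and 34419 CPM in A1 and A3, 26831 and 33001 CPM in B1 and B4, and 8310 to 16370 CPM in the 4 letter C libraries. The part of these markers in the letter difference of the members was not tested.

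**Figure D5:**
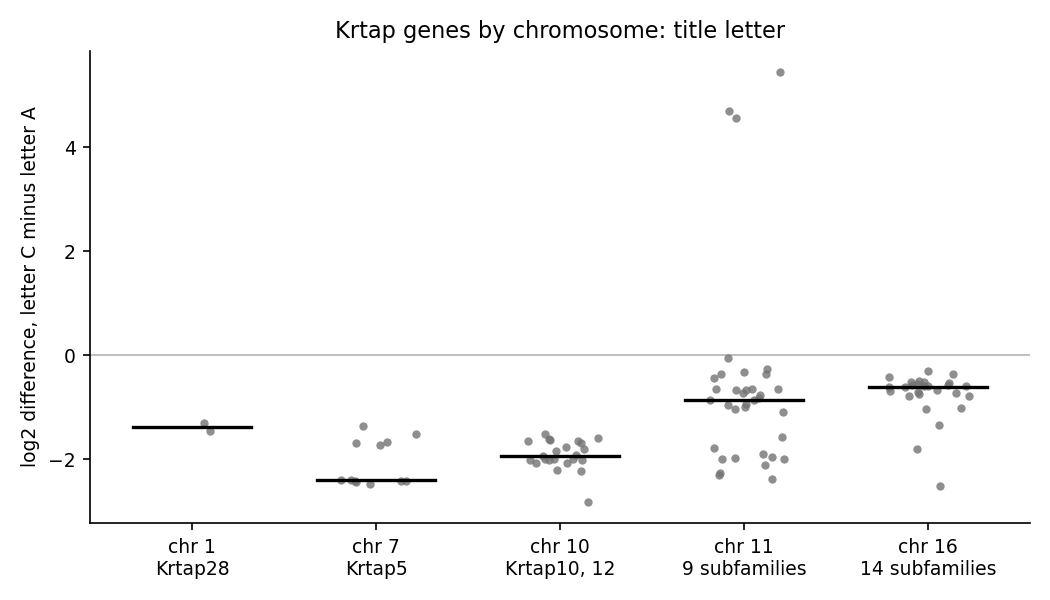
Log2 difference between letter C and letter A libraries, with genotype in the fit, for the 99 tested members by chromosome. Each point is a gene and black lines are medians, which are lowest on chromosome 7 (-2.40) and chromosome 10 (-1.93). The 3 points far above 0 on chromosome 11 are the *Krtap31* genes.

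Beside *Krtap17-1*, the members of chromosomes 11 and 16 that passed in the contrast of C against A were *Krtap4-13*, *Krtap4-16*, *Krtap16-1*, *Krtap29-1*, *Krtap24-1* and *Krtap26-1*. Their log2 differences of C minus A were between -2.51 and -1.03 (adjusted p from 0.0203 to 0.0445). In human hair, KRTAP17-1, KRTAP24-1 and KRTAP26-1 are known from the cuticle. *Krtap26-1* was at 106, 16.9, 13.3 and 11.6 CPM in controls A1, B1, C1 and C6 and at 43.1, 65.2, 10.5 and 19.5 CPM in RoraEKO replicates A3, B4, C2 and C3. *Krtap24-1* was at 118, 30.2, 36.8 and 18.4 CPM and at 47.5, 46.0, 12.3 and 24.0 CPM in the same order, and in both genes the genotypes overlapped.

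The *Krtap31* genes, 3 high sulfur genes of chromosome 11, followed neither pattern. Their summed level was 1.14, 7.65, 2.18 and 53.2 CPM in controls A1, B1, C1 and C6 and 0.522, 0.370, 16.4 and 9.19 CPM in RoraEKO replicates A3, B4, C2 and C3. Letter A was the lowest or near the lowest, in contrast to the other subfamilies, and replicate C6, with 1418 counts, was the highest. *Krtap31-3* was at 27.6 CPM in C6 and at most 10.2 CPM in the other 7 libraries (log2 fold change -0.95, standard error 1.63, adjusted p = 0.772). The log2 differences of C minus A were between 4.56 and 5.44, with adjusted p from 0.0548 to 0.132.

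The other subfamilies that a single gene stands for gave values of the same kind as their chromosome. *Krtap6-3* was at 1040 ± 340 CPM in control and 1340 ± 369 CPM in RoraEKO libraries, *Krtap14* at 840 ± 332 and 1114 ± 279 CPM, and *Krtap16-3* at 573 ± 223 and 735 ± 253 CPM (SD, n = 4). *Krtap22-2* was at 780 ± 446 and 1039 ± 436 CPM, *Krtap20-1* at 344 ± 120 and 466 ± 219 CPM, *Krtap21-1* at 432 ± 229 and 583 ± 321 CPM and *Krtap11-1* at 607 ± 344 and 677 ± 233 CPM. The difference between the group means was smaller than the larger SD in each of these genes, and their adjusted p ran from 0.570 to 0.912.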

How the data were processed

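The authors prepared stranded, poly(A)-selected libraries, trimmed the read pairs with Skewer, aligned them with STAR 2.5.3a to GRCm39 and estimated gene counts with RSEM. The deposited table holds these expected counts for 55416 genes, unscaled, with no pooling of samples. The annotation release and the strand setting of the counting are not given in the sources used here.

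The expected counts were rounded, genes were filtered with filterByExpr (minimum count 10, by genotype), which left 13147 genes, and libraries were scaled by TMM. The genotype comparison used edgeR 4.0.16 in R 4.3.3 (glmQLFTest, legacy form) without covariates. P-values were adjusted by Benjamini-Hochberg over all genes tested, and cutoffs were 0.05 for the adjusted p and 1.5 for the fold. The edgeR quasi-likelihood test of the title letter had genotype in the fit and no fold cutoff. Standard errors refer to differences between group means of log2 CPM with a prior count of 2. CPM below 3 counts were taken as the floor, and this covers counting error only. The study gives 4 mice per genotype, the labels do not tie libraries to mice, and p-values measure the spread between these samples. DESeq2 1.42.0 and other filters, scalings and tests were alternatives, 18 in all for a gene.

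Symbols, coordinates and coding sequences came from GENCODE M39 on GRCm39, in which 54749 of the gene IDs were found. Windows of 250 bases before each gene's start were searched for motifs. Protein composition was computed from translated coding sequences.

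The members and the lists of other hair genes and cell markers were chosen with earlier results of these data known. The genes named were *Rora*, members past the cutoffs, the 10 most abundant, the most abundant of each subfamily, the 3 smallest adjusted p for either direction and for the letter, and the tested neighbours of the *Krtap13* genes. On simulated counts with 200 of 13147 genes changed 4-fold, the genotype test recovered 89.1% of 192 changed genes that passed the filter. The changed genes were picked at random and the simulation had no letter effect, so this share does not carry over to the members.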

Additional observations from a re-analysis of the deposited data

Results flagged for a closer look

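In 5 of 70 groups of 4 libraries, which cover the 34 named members and the summed level of all members in each genotype, the highest library lay farther from the others than Dixon's critical value, and chance gives about 1 in 20. Control replicate A1 was the high library for *Krtap5-2* (347 CPM, against 75.9 to 122 in the other control libraries), for *Krtap29-1* (18.8 CPM, against at most 4.32) and for *Krtap26-1* (106 CPM, against 11.6 to 16.9). RoraEKO replicate A3 was the high library for *Krtap10-10* (695 CPM, against 273 to 290). Control replicate C6 was the high library for *Krtap31-3* (27.6 CPM, against 0.609 to 4.75). Without replicate A1, *Krtap5-2* was still lower in the RoraEKO libraries by the cutoffs.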

How the results depend on the processing

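The number of members lower in RoraEKO libraries, 1 in the reported fit, was 8 with DESeq2 (4.21% of all genes in that fit), 13 with *Xist* as a covariate (2.18%), 7 with all genes of at least 1 count (1.71%), 7 with library size alone (3.67%), 7 with the likelihood ratio test (4.38%) and 2 with the non-legacy test (3.38%). It was 1 to 6 with each library left out in turn (6 without C6, against 2.29% of all genes in that fit, 2 without A3, against 2.47%, and 1 without any other, against 2.09% to 3.88%). No alternative called a member higher. The fit with *Xist* rests mostly on controls A1 and B1, both outside letter C. The letters do not pair the libraries by their labels, and with the letter as a replicate block 13 members were lower, 11 of them on chromosome 10, against 4.4% of all tested genes. Deviations from the genotype means correlated at r = 0.48 in A, 0.05 in B and 0.59 in C. Each library was then compared with the libraries of the other genotype. For 7 of 8 the best match had the same letter, the exception being B4. The match of B1 was at r = 0.05, and letter C libraries had more candidates of their own letter than the others. The number called by letter, 3 in the reported fit, was 48 with DESeq2 (10.7% of all genes in that fit), 11 with RLE size factors (0.57%), 89 with all genes of at least 1 count (10.8%), 20 with at least 10 counts in every sample (1.94%), 12 with library size alone (0.806%), 55 with the likelihood ratio test (13%), 15 with the non-legacy test (0.943%) and 9 with the robust test (0.616%). It was 0 to 34 with a library left out (0% to 3.33%). The hair lists had 0 lower genes, in place of 1, with RLE size factors and with either filter, 0 to 1 with a library left out, and 0 to 5 higher genes. The cause of these shifts was not tested. For the 34 named members, 593 of 611 alternative values stayed on the same side of the cutoffs, 18 newly passed them and 14 changed sign, each without passing the cutoffs. Each genotype had 4 libraries, with 1 of each genotype in letters A and B. Counts limit the values of *Krtap31* and of the 5 untested members.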
